A study of Mus musculus with 6 samples.

Results

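Every transcript that the deposited table assigned to Mbp (ENSMUSG00000041607) was described, whether or not it reached the first exon. The members were found as the rows whose gene field was Mbp, and there were 272 of them, made from 410 reads, among 36659 transcripts and 73594 reads in all. Mbp was 1 of 6357 genes named alone in the table, and 0 rows named it together with another gene. A transcript here is a cDNA molecule: the reads of a cell that carried the same unique molecular identifier (UMI, 6 random bases added at the 5′ end during cDNA synthesis) were merged into 1 entry by the authors.

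The study read amplified full-length cDNA of 6 single cells with long PacBio reads. All cells came from the brain of CD-1 mice, are labelled as embryonic, and carried no treatment or transgene in the labels. The cDNA was left from an earlier experiment that used the STRT protocol on a microfluidic C1 chip, which takes poly-A RNA. There were 2 cells of the immature oligodendrocyte class Oligo1 (Oligo1-1 and Oligo1-2), 2 of the mature myelinating class Oligo5 (Oligo5-1 and Oligo5-2) and 2 vascular and leptomeningeal cells (VLMC-1 and VLMC-2). The labels name the last pair oligodendrocyte progenitors, while the study calls them VLMCs. The labels do not name the animal of a cell, so the 2 cells of a type are not known to be independent, and cell types are set side by side without a test. Intervals are Wilson 95% intervals of counts and cover counting error only.

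The cells had between 2338 (VLMC-1) and 11483 (Oligo1-1) transcripts. Of 10 oligodendrocyte markers other than Mbp, 9 or 10 were found in each oligodendrocyte, where they made up 9.55% to 14.9% of transcripts, and 0 were found in either VLMC. Of 10 VLMC markers such as collagens and Dcn, 8 and 9 were found in the VLMCs (4.58% and 5.82% of transcripts), and Oligo1-2 had a single transcript of 1 of them. Of 10 progenitor markers, 1 was found in each VLMC. It was Pdgfra, with 5 and 3 transcripts in VLMC-1 and VLMC-2 and 0 in every oligodendrocyte. Oligo1-1, Oligo1-2, Oligo5-1 and Oligo5-2 had 4, 2, 2 and 1 of the 10. Apart from Pdgfra, the markers went with the name VLMC and against the label of that pair. The immature oligodendrocyte list took 0.427% and 0.894% of transcripts in the Oligo1 cells and 0.102% and 0.0644% in the Oligo5 cells. Its members did not all go the same way. Itpr2, Tcf7l2, Sirt2 and Rras2 were higher in both Oligo1 cells, and Sirt2 and Rras2 gave most of the Oligo1 sum. Enpp6 went the other way, with 0 transcripts in each Oligo1 cell and 4 and 3 in Oligo5-1 and Oligo5-2. Neuron markers were found in Oligo5-2 alone (5 of 10 genes, 37 transcripts, 0.596%), and microglia markers were at 0 in every cell. The astrocyte list ranged from 0.0165% in Oligo1-2 to 0.837% in Oligo5-2, with 0.407% in Oligo5-1 and 0.618% in VLMC-2. In Oligo5-2, S100b, which oligodendrocytes also express, gave 33 of the 52 transcripts. Slc1a2 gave 17 of the 52 and was at 0 in every other cell. The part of these other transcripts in the Mbp values of Oligo5-2 was not tested.

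Myelin basic protein is a positively charged protein that holds the cytoplasmic faces of the myelin membrane together, and compact myelin of the central nervous system does not form without it. Its mRNA is packed into granules in the cell body, carried along the processes of the oligodendrocyte and translated near the growing myelin sheath, and sequences in the 3′ untranslated region take part in this transport. The gene has an upstream and a downstream promoter. The upstream one makes the Golli transcripts, which add upstream exons and are known from oligodendrocyte precursors, neurons and immune cells, and the downstream one makes the classic myelin transcripts, whose 7 exons are spliced with or without exons 2 and 6.

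Mbp lies on the plus strand of chromosome 18 (mm10, the GRCm38 assembly). The Golli promoter region begins at 82475146, and the first base of classic exon 1 is 79324 bp further downstream. Exon 1 (82554470-82554750) carries 57 codons from the start codon at 82554580, and exons 2 to 6 carry 26, 34, 12, 11 and 41 codons, so each internal exon is a multiple of 3 and can be left out without a shift of the reading frame. Exon 7 (82584112-82585637) carries the last 14 codons and the stop codon, and its other 1481 bp are untranslated. The reading frame of all 7 exons codes for 195 residues (21.4 kDa, computed from the reference without the first methionine). Without exon 2 it codes for 169 (18.4 kDa), without exon 6 for 154 (17.1 kDa), and without both for 128 (14.1 kDa). The exon numbers in the deposited table follow a Golli model that does not contain exons 2, 5 and 6 of the classic form, so exons were placed here by their coordinates in GENCODE release 21. No nucleotide sequence is printed here.

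Mbp transcripts were found in the 4 oligodendrocytes and in neither VLMC. Oligo1-1 had 165 of 11483 transcripts from Mbp (1.44%, 1.23% to 1.67%) and Oligo1-2 had 57 of 6043 (0.943%, 0.729% to 1.22%). Oligo5-2 had 31 of 6211 (0.499%, 0.352% to 0.708%) and Oligo5-1 had 19 of 5895 (0.322%, 0.206% to 0.503%). In this order of levels, the interval of each Oligo1 cell lay above those of both Oligo5 cells, the intervals of the 2 Oligo5 cells overlapped, and that of Oligo1-1 lay just above that of Oligo1-2. Summed over the cells of a type, Mbp made up 1.27% of Oligo1 transcripts and 0.413% of Oligo5 transcripts, a ratio of 3.07, while the ratio between the 2 cells of a type was 1.52 for Oligo1 and 1.55 for Oligo5.

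**Figure D1:**
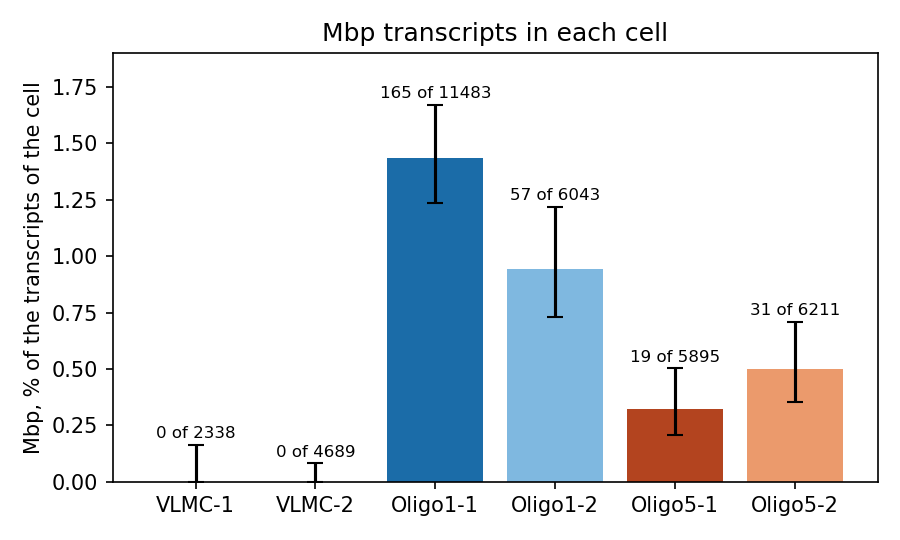
Mbp transcripts as a percentage of all transcripts of each of the 6 cells, with Wilson 95% intervals as error bars and the counts above. The Oligo1 cells stand at 1.44% and 0.943%, the Oligo5 cells at 0.322% and 0.499%, and both VLMCs at 0.

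VLMC-1 had 0 of 2338 transcripts, for a limit of 0.128%, and VLMC-2 had 0 of 4689, for a limit of 0.0640% (a limit being the share that 3 counts of the total would make). The order of the cells was the same with reads in place of transcripts (1.27%, 0.853%, 0.448% and 0.298%) and with UMIs read 2 or more times (1.18%, 0.520%, 0.415% and 0.353%). The gap between Oligo1-2 and the Oligo5 cells was smaller in the latter. That setting rested on 8 of 1537 transcripts in Oligo1-2, 6 of 1447 in Oligo5-2 and 11 of 3115 in Oligo5-1. The order was not kept among Mbp transcripts that reached exon 1. These were 61 of 11483 transcripts in Oligo1-1, 19 of 6211 in Oligo5-2, 5 of 6043 in Oligo1-2 and 4 of 5895 in Oligo5-1. Oligo5-2 then stood above Oligo1-2.

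Among 62 other genes with 50 or more transcripts, the 5 whose levels over the 6 cells followed Mbp most closely were Msmo1 (Pearson r = 0.984), Cyp51 (0.963), Mobp (0.951), Elovl7 (0.917) and Hmgcs1 (0.916). These are descriptions over 6 cells, 2 of which had 0 transcripts of every gene named, and cells of 1 type share their type. Msmo1, Cyp51 and Hmgcs1 are enzymes of sterol synthesis, Elovl7 lengthens fatty acids, and Mobp is another small basic protein of compact myelin. Msmo1 stood at 34.0 and 18.2 per 10000 transcripts in Oligo1-1 and Oligo1-2, and at 5.09 and 6.44 in Oligo5-1 and Oligo5-2.

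Of 16 other genes looked up as genes of compact and noncompact myelin, 15 were found in the oligodendrocytes. Plp2, a membrane protein that is not known as a myelin component, was at 0. For 6 of the 16 (37.5%: Mobp, Mag, Cnp, Cldn11, Opalin and Tspan2) both Oligo1 cells lay above both Oligo5 cells, as Mbp did. For 5 (Mal, Ermn, Omg, Cd9 and Gjb1) both Oligo5 cells lay above. Over all 63 genes with 50 or more transcripts these orders were met by 42.9% and 22.2%, and neither count is read as setting the list apart. The list had no such floor (Gjb1 had 1 and 2 transcripts in Oligo5-1 and Oligo5-2), so the shares are not like for like. Mal, a myelin proteolipid, moved furthest the other way, with 0.871 and 0 per 10000 transcripts in the Oligo1 cells and 88.2 and 37.0 in the Oligo5 cells.

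Of 10 genes that regulate or carry Mbp RNA, 8 were found in each Oligo1 cell, 6 in Oligo5-1 and 5 in Oligo5-2. Olig1 and Olig2, transcription factors of the lineage, and Fyn, a kinase that promotes local translation of Mbp, were higher in both Oligo1 cells than in both Oligo5 cells, and 0 of the 10 showed the reverse order. Beside the 42.9% and 22.2% of all 63 genes, the 3 of 10 (30%) does not set this list apart either, and this list too had no floor of transcripts. Fyn had 5 and 6 transcripts in the Oligo1 cells and 0 in each Oligo5 cell. Qk, the quaking protein that binds Mbp RNA, stood at 14.8 and 18.2 per 10000 transcripts in the Oligo1 cells and at 18.7 and 8.05 in the Oligo5 cells, with overlapping groups. The transport motor Kif1b stood at 12.2 and 16.5 against 25.4 and 16.1.

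Most Mbp transcripts were 3′ pieces. Of the 272, 175 (64.3%, 58.5% to 69.8%) lay wholly in exon 7, 8 (2.94%) began in or beside exons 2 to 5, and 89 (32.7%, 27.4% to 38.5%) reached exon 1. Of the 175, 174 began after the stop codon and so held untranslated sequence alone. The median aligned length was 837 bp over all transcripts. Transcripts that held both the start codon and the stop codon numbered 72 (26.5%).

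The cells differed widely in this respect. The share that reached exon 1 was 19 of 31 (61.3%, 43.8% to 76.3%) in Oligo5-2, 61 of 165 (37.0%, 29.98% to 44.6%) in Oligo1-1, 4 of 19 (21.1%, 8.51% to 43.3%) in Oligo5-1 and 5 of 57 (8.77%, 3.81% to 18.9%) in Oligo1-2. The highest cell of this order was an Oligo5 cell and the lowest an Oligo1 cell, and the cells of a type did not stand together. Transcripts with both ends of the coding sequence numbered 52 in Oligo1-1, 16 in Oligo5-2, 3 in Oligo1-2 and 1 in Oligo5-1. Genes other than Mbp gave the same order of the 4 cells. A single aligned block was seen in 63.9% of other transcripts in Oligo1-2, 58.6% in Oligo5-1, 37.6% in Oligo1-1 and 34.7% in Oligo5-2. For Mbp the shares were 89.5%, 73.7%, 60% and 35.5%.

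The split also followed the sequencing run. The library was read in a short run (5 of 7 SMRT cells, older chemistry) and in a long run (2 of 7), and 176 Mbp transcripts were seen in the short run alone, 72 in the long run alone and 24 in both. Exon 1 was reached by 23 of 176 (13.1%), 58 of 72 (80.6%) and 8 of 24 (33.3%), respectively. The median aligned length was 597.5 bp in the short run alone and 1908.5 bp in the long run alone. Oligo5-2 had 19 of its 31 transcripts from the long run alone, against 47 of 165 in Oligo1-1, 4 of 57 in Oligo1-2 and 2 of 19 in Oligo5-1. The share of the run in the differences between cells was not tested.

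**Figure D2:**
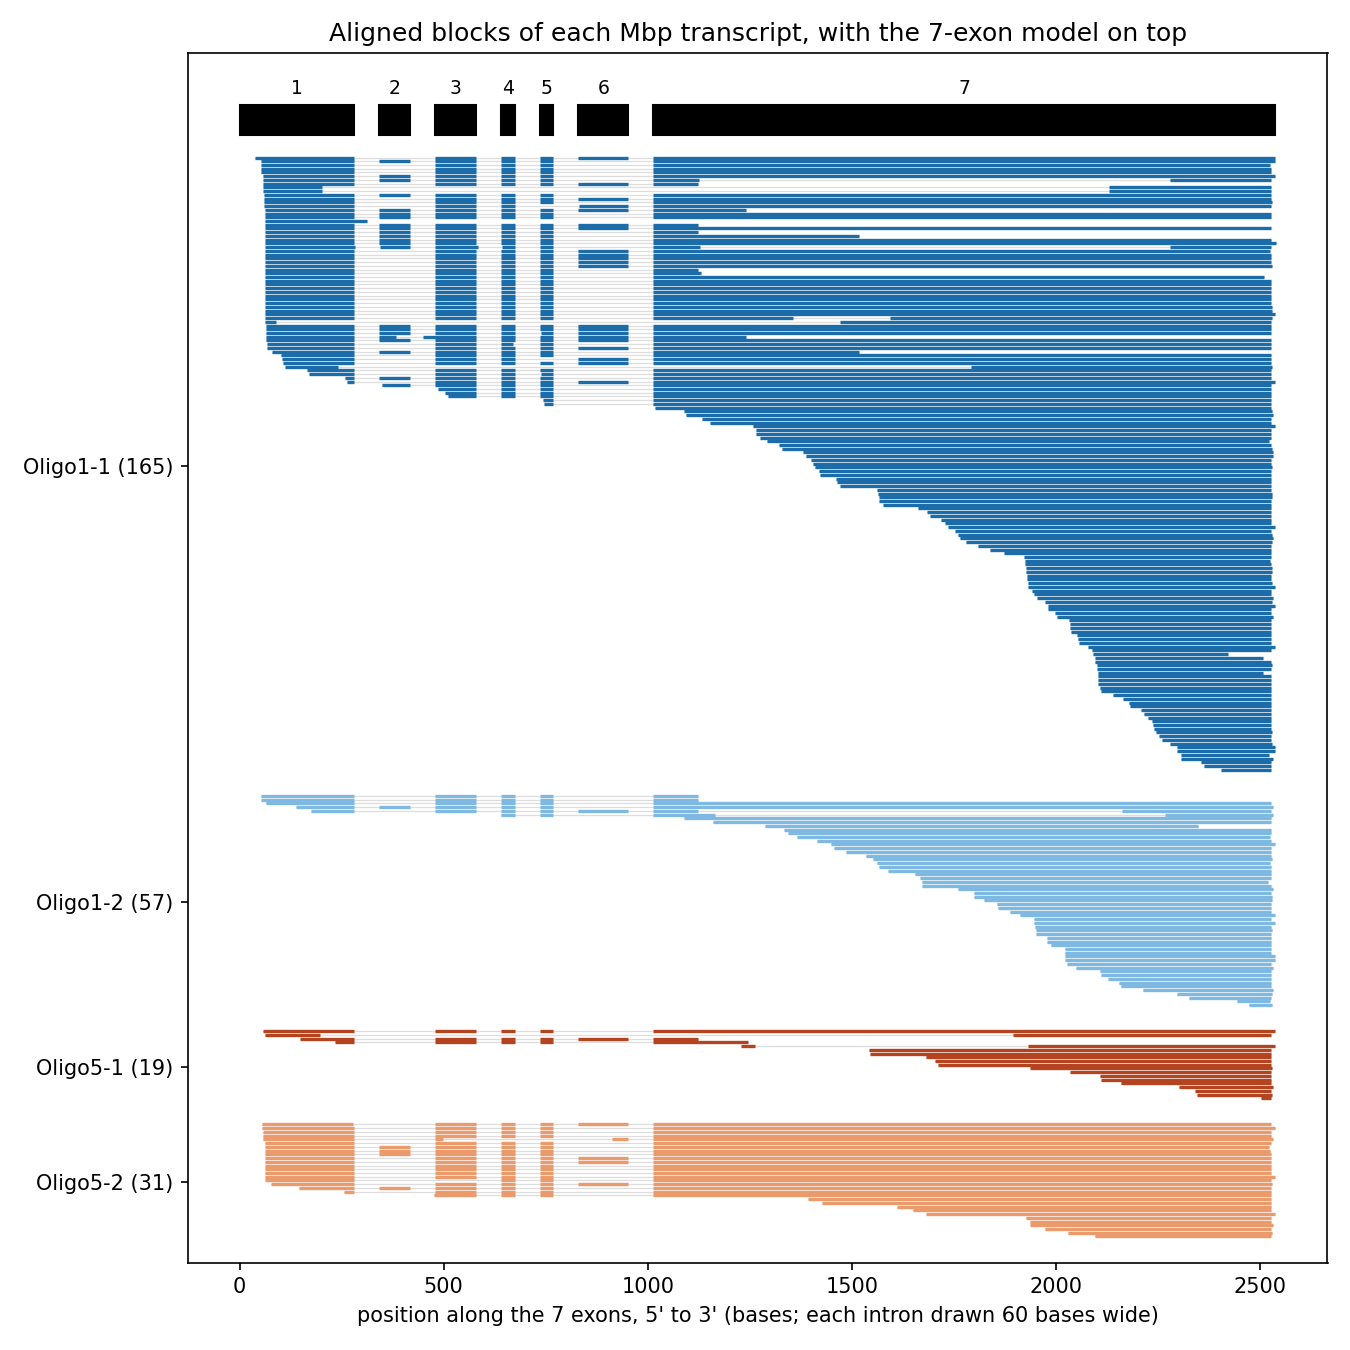
Aligned blocks of each of the 272 Mbp transcripts, 1 line each, sorted by start within the 4 oligodendrocytes, against the position along the 7 exons in bases, with each intron drawn 60 bases wide and blocks that run further into an intron cut off there. Pale lines join the blocks of a transcript. The long wedge in each cell is the 175 transcripts that lie wholly in exon 7, and the 89 that reach exon 1 sit on top of it.

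Exons 2 and 6 were minor and exons 3, 4 and 5 were near constant. The inclusion of an exon was taken over the transcripts that spanned it, with 5 or more aligned bases on either side, and an exon counted as included when blocks covered 50% or more of it. Exon 2 was included in 26 of 88 (29.5%, 21.03% to 39.8%) and exon 6 in 27 of 96 (28.1%, 20.1% to 37.8%). Exon 3 was included in 82 of 89 (92.1%, 84.6% to 96.1%), exon 4 in 87 of 93 (93.5%, 86.6% to 97.0%) and exon 5 in 86 of 94 (91.5%, 84.1% to 95.6%).

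Transcripts that did not reach exon 1 added few spanning molecules. They gave 0 for exon 2, 1 for exon 3, 5 for exon 4, 6 for exon 5 and 8 for exon 6. Exons 3, 4 and 5 were present in every one of these, and exon 6 was absent from all 8. The 8 began in exon 2 (82561787), at or inside exon 3 (82572823, 82572832, 82572850 and 82572856), at the first base of exon 4 (82575172) and inside exon 5 (82575608 and 82575610), 6 of them in Oligo1-1. With them, the inclusion of exon 6 was 28.1%, against 30.7% (27 of 88) among transcripts that reached exon 1.

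Per cell, exon 2 was included in 21 of 60 spanning transcripts in Oligo1-1 (35.0%, 24.2% to 47.6%), 1 of 5 in Oligo1-2, 0 of 4 in Oligo5-1 and 4 of 19 in Oligo5-2 (21.1%, 8.51% to 43.3%). By type this was 22 of 65 (33.8%, 23.5% to 46.0%) in Oligo1 and 4 of 23 (17.4%, 6.98% to 37.1%) in Oligo5. Exon 6 was included in 21 of 66 in Oligo1-1 (31.8%, 21.8% to 43.8%), 1 of 6 in Oligo1-2, 1 of 4 in Oligo5-1 and 4 of 20 in Oligo5-2 (20%, 8.07% to 41.6%). By type it was 22 of 72 (30.6%) and 5 of 24 (20.8%). The intervals of the types overlapped for both exons, and Oligo1-1 alone gave 60 of the 88 transcripts that spanned exon 2, so a difference in splicing between immature and mature cells was not detectable at this depth. Without Oligo1-1, exon 2 was included in 17.9% (5 of 28) and exon 6 in 20% (6 of 30).

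**Figure D3:**
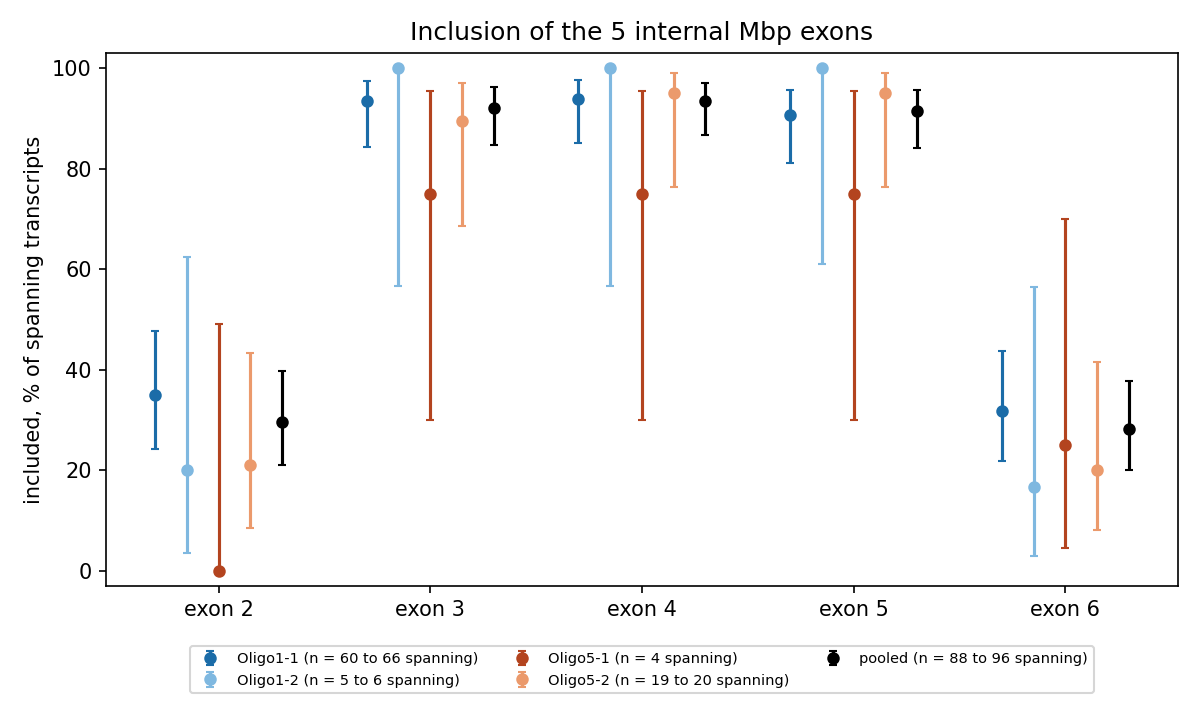
Percentage of spanning transcripts that included each internal exon, for the 4 oligodendrocytes and pooled (black), with Wilson 95% intervals as error bars. Pooled values are 29.5% for exon 2 and 28.1% for exon 6 and between 91.5% and 93.5% for exons 3 to 5, and the intervals of Oligo1-2 and Oligo5-1 are wide because 4 to 6 transcripts stand behind each.

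Inclusion of the near-constant exons differed between runs. Among short-run transcripts exon 3 was included in 17 of 22 (77.3%), exon 4 in 18 of 23 (78.3%) and exon 5 in 19 of 24 (79.2%). Among long-run transcripts these were 57 of 58 (98.3%), 61 of 61 and 59 of 61 (96.7%). Exon 2 stood at 40.9% (9 of 22) and 27.6% (16 of 58), and exon 6 at 26.9% (7 of 26) and 31.1% (19 of 61), and for both of these exons the intervals of the runs overlapped.

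Joined over the molecule, the exons formed 7 combinations in the 88 transcripts that ran from exon 1 to exon 7. Leaving out both optional exons, the 14.1 kDa form, was the most frequent with 36 transcripts (40.9%, 31.2% to 51.4%). The form with exon 2 and without exon 6 had 18 (20.5%), the form with exon 6 and without exon 2, the 18.4 kDa form, had 17 (19.3%), and the form with all 7 exons had 8 (9.09%, 4.68% to 16.9%). All 8 of the last came from Oligo1-1, where they were 8 of 60. The 0 of 19 in Oligo5-2 has an interval of up to 16.8%, which includes the 13.3% of Oligo1-1. Together the 4 forms took 79 of 88 (89.8%), and 68 of 88 (77.3%) had 1 of the 4 forms and both ends of the coding sequence.

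The remaining 9 were of 3 kinds. In 6, with 4 from Oligo1-1 and 1 from each Oligo5 cell, none of exons 2 to 6 was covered over 50% or more of its length, in 2 of Oligo1-1 exon 5 was missing beside exon 2, and in 1 of Oligo5-2 exons 2, 3 and 6 were missing. The long form of exon 5, which begins 66 bp upstream in 3 of 16 annotated transcripts of the gene, was used by 0 of 88 transcripts with a block in exon 5. Of these, 2 began inside exon 5 and could not show the long form, and 86 had a junction at its start. The limit of 3.41% over all 88 is therefore slightly too low.

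No relation between the inclusion of exon 2 and that of exon 6 was detected. Of 88 transcripts that spanned both, 8 held both, 18 exon 2 only, 19 exon 6 only and 43 neither (log2 odds ratio 0.04, two-sided Fisher's exact test, p = 1). The test is over molecules, which are not replicates of cells. In Oligo1-1 alone the counts were 8, 13, 13 and 26 (log2 odds ratio 0.31, exact p = 0.78), and in Oligo5-2 they were 0, 4, 4 and 11 (−1.82, exact p = 0.53). Nor was a relation of exon 6 or exon 2 with an early end in exon 7 detected, with log2 odds ratios of 0.64 and 1.02 (adjusted p = 0.739 and 0.59 over the 7 pairs, Fisher's exact test). For exons 2 and 3, 26 transcripts held both, 0 exon 2 only, 55 exon 3 only and 7 neither. This pair did not pass the threshold (log2 odds ratio 2.84, Fisher's exact test, adjusted p = 0.232).

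Joint loss of exons 3, 4 and 5 was seen, among these transcripts, in irregular molecules alone. From Sanger sequencing of PCR products, the paper reports that these exons seemed to be kept or left out together. With the transcripts that do not reach exon 1 included, exons 3 and 4 were both present in 82, both absent in 6 and present alone in 0 and 1 (log2 odds ratio 9.48, Fisher's exact test, adjusted p = 8.4e-08 over the 7 pairs). Exons 4 and 5 were both present in 85, both absent in 6 and present alone in 2 and 0 (8.80, Fisher's exact test, adjusted p = 1.3e-07). All 6 molecules that lacked these exons had an irregular junction, 5 from inside exon 1 to inside exon 7 and 1 from exon 3 to exon 6, and lacked the exons by that jump, so the odds ratios restate the jumps. Of the 81 transcripts from exon 1 to exon 7 with no irregular junction between exons, 78 held exons 3, 4 and 5, 3 lacked a single one of them and 0 lacked more. By run, 5 of the 6 came from the short run alone, 1 from both runs and 0 from the long run alone, in which 61 of 61 transcripts held exon 4, so that the tests there carry no information (p = 1 by construction, Fisher's exact test).

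No Golli sequence was found. Of 272 Mbp transcripts, 0 covered any of the upstream exons used by 4 of the 16 annotated transcripts, 0 began before exon 1, and 0 held a base of the longer upstream form of exon 1 that begins at 82554320. The limit that these counts set is 1.10% of all Mbp transcripts, and 3.37% of the 89 that reached exon 1. The second limit applies to the part that could show the upstream exons, and it is 4.92% in Oligo1-1, 15.8% in Oligo5-2, and 60% and 75% in Oligo1-2 and Oligo5-1, where 5 and 4 transcripts reached exon 1. The first aligned base of any Mbp transcript was 82554508, 38 bp inside exon 1.

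Within exon 1, starts were concentrated. With starts no more than 5 bp apart chained into 1 site, the 89 transcripts had 9 sites, and the main site (82554523-82554538) held 72 of them, with 39 at the single position 82554533. This site was found in each oligodendrocyte, with 51 of 61 in Oligo1-1, 3 of 5 in Oligo1-2, 2 of 4 in Oligo5-1 and 16 of 19 in Oligo5-2. Of the other 8 sites none had more than 4 transcripts. In 78 of the 89 (87.6%, 79.2% to 93.0%) the start lay at or before the start codon, and in 11 it lay in exon 1 after it.

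Within exon 7, starts were scattered. The 175 transcripts had 84 start sites, of which 53 had a single transcript and 20 were seen in 2 or more cells. Starts lay 4 to 1490 bp into the exon, with a median of 920 bp, and the medians of the 4 cells were 924, 874, 1021 and 914 bp in the order Oligo1-1, Oligo1-2, Oligo5-1 and Oligo5-2. They were not even along the exon, with 7 in the first 200 bp, 42 between 1000 and 1199 bp and 3 after 1400 bp. The most used sites were 82585187-82585211, with 17 transcripts from all 4 cells (12, 2, 2 and 1), and 82585022-82585040, with 14 from 3 cells. In each of these the most used base held 3 transcripts, so they are chained stretches of near starts rather than single shared positions.

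**Figure D4:**
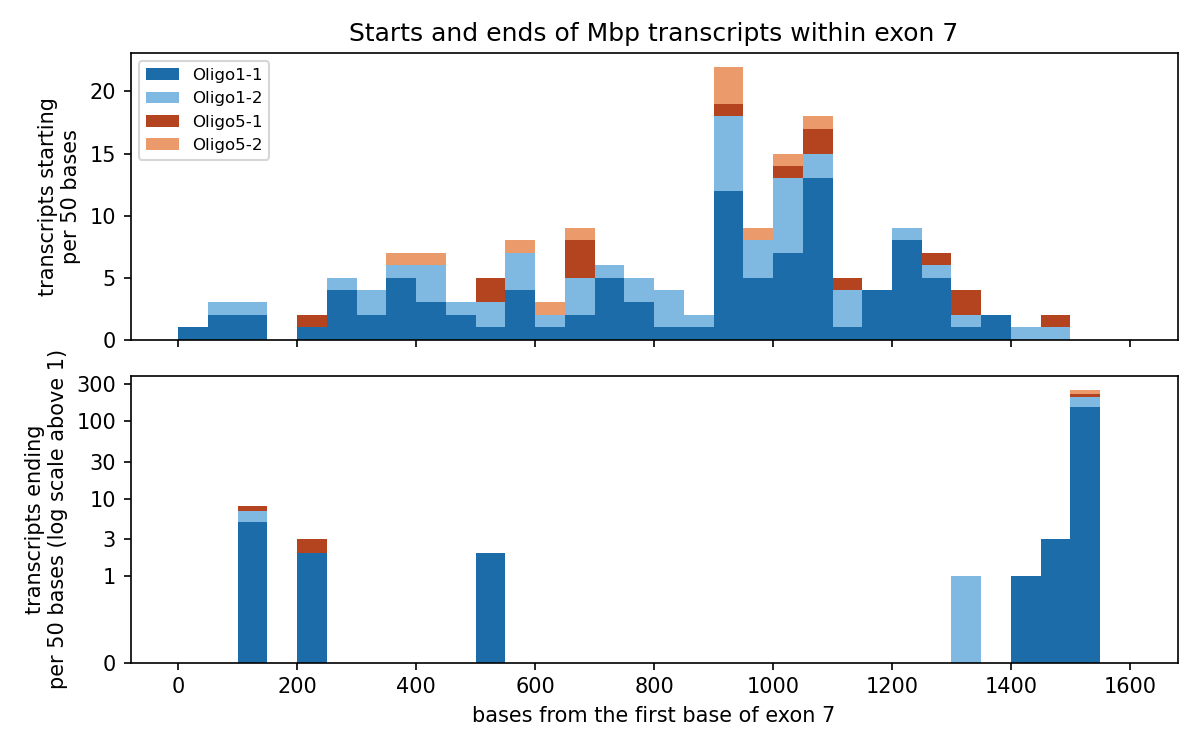
Number of Mbp transcripts that start (top) and end (bottom, log scale above 1) per 50 bases of exon 7, stacked by cell, against the distance from the first base of the exon. Starts spread over the exon with a median of 920 bp, while 253 of 272 ends lie at the annotated end and a small group lies just over 100 bp into the exon.

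The UMI itself was compared with the reference bases before each start. In this protocol the UMI and 3 guanines sit at the end of the oligonucleotide to which the reverse transcriptase switches, and an oligonucleotide that pairs with the cDNA inside the transcript, known as strand invasion, is one recognized origin of starts away from the cap. The 6 UMI bases were set against the 6 reference bases that precede the start, with 3 bases between for the guanines. Of 174 transcripts wholly in exon 7 with enough exon before them, 25 (14.4%, 9.93% to 20.3%) matched in 5 or 6 of the 6 bases, and 16 matched in all 6. Of 89 starts in exon 1, 2 (2.25%, 0.618% to 7.83%) matched in 5 and 0 in all 6. With 0, 1, 2, 4, 5 or 6 bases between in place of 3, the exon 7 count was 0 to 4 of 174 and never a match of all 6.

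**Figure D5:**
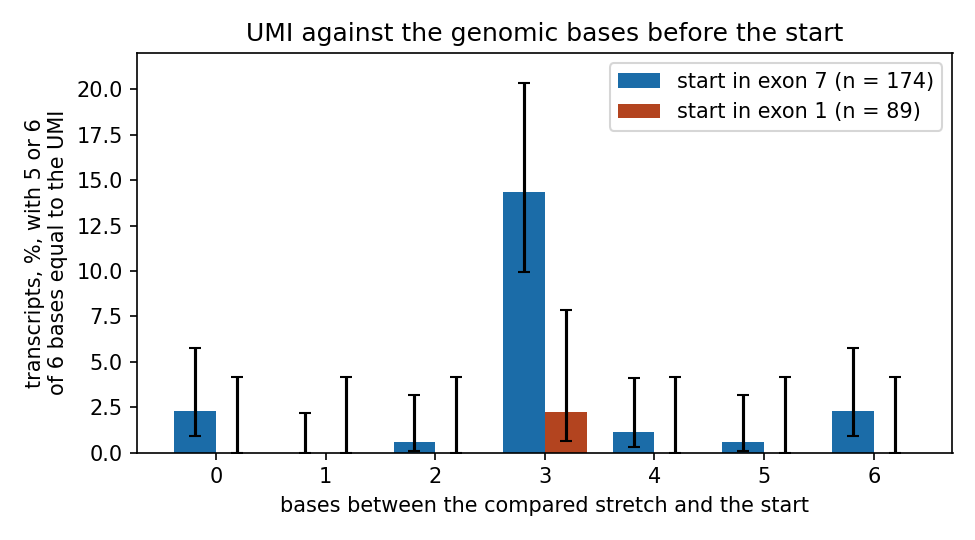
Percentage of Mbp transcripts whose UMI equals the reference bases before the start in 5 or 6 of 6 positions, by the number of bases left between, for starts in exon 7 and in exon 1, with Wilson 95% intervals as error bars. With 3 bases between, the exon 7 starts stand at 14.4% and the exon 1 starts at 2.25%, and all other spacings lie at or below 2.30%.

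These matches were found in each oligodendrocyte, in 13 of 97 exon 7 transcripts in Oligo1-1, 6 of 51 in Oligo1-2, 5 of 15 in Oligo5-1 and 1 of 11 in Oligo5-2. A single stretch (82585203-82585210) held 7 of the 25, from 3 cells. Other genes pooled over the same 4 cells had the measure at 11.6% (1362 of 11757) for starts in the last exon. They had 11.0% for starts in internal exons and 1.91% (153 of 8012) for starts in the first exon. The Mbp share in exon 7 was above the pooled last-exon value, with an interval that covered it. By cell, the Mbp intervals of Oligo1-1, Oligo1-2 and Oligo5-2 covered the last-exon value of other genes in the cell. That of Oligo5-1 (33.3%, 15.2% to 58.3%) lay above its 11.0%. The 3 bases before exon 7 starts held 2 or 3 guanines in 35.1% of cases, against 19.4% over every position of exon 7 and 5.62% before exon 1 starts. The remaining 149 exon 7 starts showed no UMI match, and their origin was not tested.

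The same UMI was met in different cells more often among close exon 7 starts. Of 100 pairs of exon 7 transcripts from different cells whose starts lay within 5 bp of each other, 5 shared the UMI, against 0 of 884 such pairs that began in exons 1 to 6. In 3 of the 5 pairs the transcripts began at 82585207, in Oligo1-1, Oligo1-2 and Oligo5-1, and in 1 they began at 82585035 in both Oligo5 cells. Both positions lie at sites with UMI matches.

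Ends were far less varied than starts. Of the 272 transcripts, 253 (93.0%, 89.3% to 95.5%) ended at 82585619-82585638, around the annotated end, with 102 at the single position 82585626. All 31 transcripts of Oligo5-2 ended there, as did 151 of 165 in Oligo1-1, 54 of 57 in Oligo1-2 and 17 of 19 in Oligo5-1. The hexamer AATAAA, the common signal for cleavage and polyadenylation, lay within the 50 bases before the main end, and it is found in 1.62% of all windows of 50 bases in exon 7. The main variant signal ATTAAA was found in no window of the exon.

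In 18 transcripts (13, 3, 2 and 0 in Oligo1-1, Oligo1-2, Oligo5-1 and Oligo5-2) the end lay more than 20 bp before the annotated end of exon 7. The most used early site was 82584222-82584223, with 7 transcripts from 3 cells, 66 bp after the stop codon. Other sites had 1 to 3 transcripts each, at 82584230, 82584340, 82584346, 82584617, 82585448, 82585522 and 82585606-82585609. Neither hexamer lay within the 50 bases before any early site. The 10 reference bases after the early sites held 2 to 7 adenines (3 at the most used site), against a mean of 2.23 over exon 7.

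Early ends were found in 14 of 89 transcripts that reached exon 1 (15.7%, 9.61% to 24.7%) and in 4 of 175 of those wholly in exon 7 (2.29%, 0.892% to 5.73%). The shares are not like for like, since 13 of the 14 lay at the 5 sites up to 82584617, and 35 of the 175 began before the last of these sites. Of these 35, 0 ended at the 5 sites (interval up to 9.89%). Among the 88 that ran from exon 1 into exon 7, the 13 were 14.8% (8.84% to 23.7%). These 2 shares are not like for like either. Only 7 of the 175 began in the first 200 bp of exon 7, and most of the 35 began after the most used early site (82584222-82584223). Transcripts that began after a site could not end at it, so the shares do not decide whether the groups differ. Among transcripts that reached exon 1, early ends were 11 of 23 (47.8%, 29.2% to 67.0%) in the short run alone, 1 of 58 (1.72%, 0.305% to 9.14%) in the long run alone and 2 of 8 in both. A transcript that reaches exon 1 and ends early is shorter than one that ends at the annotated end, so the length of the molecule, the run and the early end cannot be told apart here. The 14 gave Oligo1-1 10 of 61, Oligo1-2 2 of 5, Oligo5-1 2 of 4 and Oligo5-2 0 of 19.

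A single transcript ended outside exon 7. It came from Oligo1-1 with 3 reads, began at the main start position 82554533, ran past the end of exon 1 and ended 554 bp into intron 1 at 82555304.

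Of 412 junctions within Mbp transcripts, 399 (96.8%) joined annotated exon ends within 5 bp. Of the 798 exon ends at these junctions, 773 (96.9%) fell on the annotated base itself. The lowest share was at the end of exon 4, with 77 of 88 (87.5%) exact and 9 displaced by 1 bp, and all 91 at the start of exon 7 were exact.

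The other 13 junctions were irregular. In 6 transcripts, with 3 from Oligo1-1, 2 from Oligo1-2 and 1 from Oligo5-1, a gap of 238 to 1152 bp lay within exon 7, and 4 of the 6 had UMIs read 2 or more times. In 3 of these the gap began after 82584223, 82584225 or 82584226, next to the early end site at 82584222-82584223. None of the 6 gaps had the GT and AG at its edges that mark nearly all introns, and the bases at both edges were repeated over 1 to 5 bp. Such short repeats are known at sites where a polymerase changes template, and whether that took place here was not tested. How often repeats of this length arise by chance was not computed. By Sanger sequencing of products from the amplified cDNA of the immature cells, the paper reports Mbp isoforms without a large part of the last exon. For some genes the paper also reports introns after the stop codon, seen by Sanger sequencing and in a library made without amplification.

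In 5 transcripts from 2 cells (4 in Oligo1-1 and 1 in Oligo5-1) the molecule jumped from inside exon 1 to inside exon 7. Of these 1 had GT and AG at its edges, and the edges shared repeats of 2 to 6 bp. A pair of the 5 in Oligo1-1 had the same junction, from 82554672 to 82585230. The pair also had the same start and end, with 1 read each, and may be 1 molecule. With near-identical UMIs counted once, exon 4 was held by 81 of 86 spanning transcripts against 87 of 93, so fewer transcripts lacked it. The last 2 irregular junctions were from exon 2 to just upstream of exon 3 in Oligo1-1 and from exon 3 to exon 6 in Oligo5-2. The latter transcript and the 5 jumps are the 6 transcripts without exons 3, 4 and 5.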

How the data were processed

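The deposited table gives, per transcript, the number of reads as counts with no normalization, and the start and end of each aligned block. Per the study's methods, the authors split concatenated PacBio reads, kept reads with matching cell barcodes on either side and a run of adenines, trimmed the guanines of the template switch, aligned to mm10 with GMAP (the submitters' processing notes name GSNAP), kept unique alignments, joined blocks less than 40 bp apart and merged reads by UMI. These joins hide gaps under 40 bp. Exact UMIs were used as deposited, so an error in a UMI counts as a further transcript.

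Block positions were set against GENCODE release 21 (GRCm38), with Python 3.11.15, pandas 2.3.3, numpy 2.4.6, scipy 1.17.1 and biopython 1.88, and drawn with matplotlib 3.10.9. Shares have Wilson 95% intervals, and a count of 0 allows 3 counts. Exon pairs were tested over molecules with the two-sided Fisher's exact test and Benjamini-Hochberg adjustment over 7 pairs, and 0.5 was added to every count before an odds ratio was taken. Inclusion calls and site chaining were tested on simulated data. The simulated sites lay further apart than the chaining distance, so chaining of dense starts as in exon 7 was not tested. The genes named beside Mbp are the 5 most correlated with it and the lists of myelin genes, of genes that regulate or carry Mbp RNA and of cell type markers, from which the members that show the order of the cells were taken. The values of 1 listed gene are not reported here. The members and lists were chosen with earlier results of these data known. The comparisons of UMIs with the reference and between cells, of bases around starts, ends and junctions, and of junction precision were chosen after the values were seen.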

Additional observations from a re-analysis of the deposited data

How the results depend on the processing

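No paired analysis was possible because no result comes from a test between groups, and replicate numbers only name cells. Of 181 alternative values, 143 kept the result. A pair that did not pass the threshold was counted as kept whenever the alternative did not pass either, whatever its size or sign. Exons 5 and 6 were counted so, with a log2 odds ratio of 0.11 in the main setting and −3.60 in the long run alone. The 143 therefore overstates how stable the values are. The called pairs (exons 3 and 4, exons 4 and 5) kept their direction and side of the threshold wherever some transcripts lacked exon 4. Exon 4 was present in every spanning transcript of the long run alone and of those that do not reach exon 1. No other p was possible there (log2 odds ratios 5.26 and 4.57, then 1.58 and 3.46, Fisher's exact test, adjusted p = 1). The sign of these odds ratios was set by the 0.5 added to every count, so it does not show a kept direction. In the long run alone, 1 transcript lacked exon 3 but held exon 4, and 2 lacked exon 5 but held exon 4.

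Using a single run moved or weakened 14 of 32 values. In the short run alone exons 2, 3, 4 and 5 were included in 40.9%, 77.3%, 78.3% and 79.2%, and 84.7% of transcripts lay wholly in exon 7. In the long run alone exons 3, 4 and 5 were included in 98.3%, 100% and 96.7%, 15.3% lay wholly in exon 7, 1.39% ended early, and there were 20 start sites and 2 end sites. Among transcripts that do not reach exon 1, exons 3, 4 and 5 were included in 100% and exon 6 in 0%.

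With UMIs read 2 or more times, exon 6 was included in 20%, 54.4% lay wholly in exon 7, there were 41 start sites and 5 end sites, 5.13% had a gap in exon 7, and Mbp made up 1.18% of Oligo1-1 and 0.520% of Oligo1-2. Tolerances of 0, 10 and 20 bp gave 185, 58 and 27 start sites against 100, and 0 bp gave 26 end sites against 10. A limit of 10 bp called 48.2% of ends early against 6.62%, since the most used end lies 11 bp before the annotated one. Counting near-identical UMIs of a cell as 1 removed 20 of 272 transcripts and moved none of the 16 values recomputed that way, for exon inclusion, exon pairs, site numbers, the share wholly in exon 7 and early ends. Levels, gaps in exon 7 and UMI matches were not recomputed.

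Leaving out each cell in turn gave 17.9% to 31.9% for exon 2, 20% to 30.3% for exon 6, 57.7% to 72.0% wholly in exon 7, 61 to 97 start sites and 4 to 10 end sites. The lowest values other than 57.7% were those without Oligo1-1, which held 165 of the 272 transcripts. Depth limits the rest: Oligo1-2 and Oligo5-1 had 4 to 6 spanning transcripts per exon, and most UMIs were read a single time (67.3% of Mbp transcripts in Oligo1-1).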
